A study of Homo sapiens with 6 samples.

Results

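The genes described here are 10 genes that bring hexoses into the cell and commit them to glycolysis: the glucose transporters Slc2a1, Slc2a3, Slc2a4, Slc2a6 and Slc2a8, the hexokinases Hk1 and Hk2, and the bifunctional enzymes Pfkfb2, Pfkfb3 and Pfkfb4. They were taken by symbol, and all 10 were among the 22989 genes of the count table. By the study's account, RNA-seq was run on 6 libraries of MDA-MB-231 PTX-resistant BCSC. These are ALDH+ breast cancer stem cells sorted from a paclitaxel (PTX)-resistant culture of MDA-MB-231, an established triple-negative breast cancer line. Of the 6 libraries, 3 were labelled LINC00115 KD, with the long non-coding RNA LINC00115 knocked down by shRNA, and 3 were labelled WT. By the same account both groups share the line, its PTX resistance and the ALDH+ sort, which was not tested here. The labels name 1 line for all libraries. The study names 1 shRNA for the RNA-seq comparison and the labels number the KD libraries as replicates, and it calls its knockdown control a control shRNA while the labels say WT. The labels do not say that libraries of a group were separate cultures, so the p-values measure the spread between these libraries, which may be technical.

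Glucose enters cells through GLUT proteins, the products of the Slc2a genes, and hexokinases trap it inside by adding a phosphate. PFKFB enzymes make and degrade a fructose bisphosphate that activates phosphofructokinase, the committed step of glycolysis, and the balance of their kinase and phosphatase activities differs between isozymes. Cancer cells commonly use much glucose, and several of these genes are known targets of the hypoxia factor HIF1 and of MYC.

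The libraries held between 36979221 and 38799331 counts. The symbols of the table are in mouse style, with 4648 genes named Gm and a number and 1129 names ending in Rik. With letter case kept, 16 symbols equalled a human symbol, a number that the case of the names largely sets. The labels and methods name a human line and human genomes. As 0 genes were named LINC00115, the knockdown could not be checked in these counts. Of the 22989 genes, 583 had no count in any library, so most of the Gm and Rik names held counts. Such names do not match a human line, and whether the counted RNA came from it was not tested. The mesenchymal markers of MDA-MB-231 had a summed level of 7700 to 7910 normalized CPM in WT and 7490 to 7650 in KD. Of these 6 markers, 3 were higher in every KD library, Fn1 was lower in every KD library, and Zeb1 had only 23 to 64 counts in a library. Markers of other tissues also differed between the groups. The summed level of 6 lung markers was 0.61 to 0.688 normalized CPM in WT and 64.7 to 76.2 in KD, with 5 of them at 0 in every WT library. The 6 kidney markers summed to 0.953 to 1.19 in WT and to 16.2 or more in KD, with 4 at 0 in every WT library, and the 4 erythroid markers found in the table to at most 0.0794 in WT and 1.31 to 2.28 in KD. The epithelial markers summed to 598 to 608 in WT and 958 to 1010 in KD, nearly all of it Krt8 and Krt18. Among them Cdh1 had 2, 1 and 3 counts in WT and 22, 30 and 31 in KD and was called higher. Krt19 went the other way, with 7, 3 and 4 counts in WT and 1, 2 and 3 in KD, and Epcam had few counts. The leukocyte markers summed to 38.6 to 52.3 in WT and 51.7 to 55.8 in KD, most of it Cd68. Within the leukocyte list Lyz2 had 33, 52 and 5 counts in WT and 249, 250 and 247 in KD and was called higher, and Cd3e was at 0 in all libraries. The part of these markers in the results on the 10 genes was not tested.

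The start regions of 4 of the genes are shown because they hold, or do not hold, ACGTG, 1 of 2 forms of the core of the motif through which HIF1 binds DNA. They are human RefSeq promoters of build GRCh38.p14, the 250 bases before a gene's start read 5′ to 3′ on the gene's strand, matched to the members by symbol without regard to case. Of the 10 genes, 7 matched, with 15 windows. Capitals mark ACGTG or its reverse complement CACGT. The windows are SLC2A1 at chr1:42958869-42959118 on the minus strand, HK2 at chr2:74833877-74834126 on the plus strand, PFKFB3 at chr10:6202682-6202931 on the plus strand, which is the second of its 2 windows, and PFKFB4 at chr3:48556804-48557053 on the minus strand.
SLC2A1: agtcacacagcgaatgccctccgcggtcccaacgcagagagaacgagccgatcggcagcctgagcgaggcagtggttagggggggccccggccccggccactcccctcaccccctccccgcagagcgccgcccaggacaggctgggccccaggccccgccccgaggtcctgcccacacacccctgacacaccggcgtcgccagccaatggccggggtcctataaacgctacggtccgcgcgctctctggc
HK2: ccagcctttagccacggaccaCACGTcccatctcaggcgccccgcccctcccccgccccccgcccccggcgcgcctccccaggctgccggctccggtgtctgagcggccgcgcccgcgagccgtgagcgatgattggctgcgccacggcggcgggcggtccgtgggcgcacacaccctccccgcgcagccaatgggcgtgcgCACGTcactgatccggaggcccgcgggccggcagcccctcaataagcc
PFKFB3: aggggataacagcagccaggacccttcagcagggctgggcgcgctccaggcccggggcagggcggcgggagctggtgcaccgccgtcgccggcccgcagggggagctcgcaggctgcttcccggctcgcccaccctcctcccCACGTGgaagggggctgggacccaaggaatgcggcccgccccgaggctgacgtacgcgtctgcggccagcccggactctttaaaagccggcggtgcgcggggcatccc
PFKFB4: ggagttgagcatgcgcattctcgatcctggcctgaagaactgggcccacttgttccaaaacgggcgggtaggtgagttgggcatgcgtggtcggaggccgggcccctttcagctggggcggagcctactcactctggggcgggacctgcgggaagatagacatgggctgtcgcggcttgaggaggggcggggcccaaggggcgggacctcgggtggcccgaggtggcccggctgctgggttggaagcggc

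ACGTG, searched on both strands, was in 3 of the 15 windows and in 2 of the 7 genes, HK2 and PFKFB3. It was in 18.5% of all 35116 promoter windows of the same length. The HK2 window shown holds it starting 229 and 48 bases before the start. The PFKFB3 window shown holds it 108 bases before the start, inside CACGTG. This palindrome is read on both strands and was in 6.34% of all windows. HK2 has 2 windows, and the one not shown holds CACGTG starting 194 and 149 bases before the start. The other form of the core, GCGTG, was in 32.2% of all windows on either strand. It is not in capitals, and among the windows shown those of HK2 and PFKFB4 hold it 1 time each while those of SLC2A1 and PFKFB3 do not. A match describes the letters only, and the absence of one says only that these letters are not in this window. The windows are human, while the counted genes have mouse-style symbols. A part of these letters in the changes of the genes was not tested.

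To determine how LINC00115 KD compared with WT in these genes, counts were tested in 1 fit over all genes by edgeR's quasi-likelihood test with Benjamini-Hochberg adjustment, and a gene was called when its adjusted p was under 0.05 and its fold change over 2. Levels are given as normalized CPM, the counts of a gene scaled to the size of its library with TMM factors, as mean ± SD of 3 libraries. They can be compared between libraries but not between genes, since gene lengths were not available. Of the 10 genes, 9 passed the low-count filter, and Slc2a4 did not. Slc2a1 was called lower and Pfkfb4 was called higher, so 1 of 9 was called each way, beside 9.98% of 13497 genes tested called lower, 10.2% called higher and 20.2% called either way. By the adjusted p alone, Slc2a1, Slc2a8, Hk1 and Hk2 were lower and Slc2a6, Pfkfb2 and Pfkfb4 were higher, 4 and 3 of 9, beside 36.7% of all genes tested in each direction and 73.4% in either. The KD and WT libraries did not overlap for the same 7 genes, 4 lower and 3 higher in every KD library, beside 75.6% of all genes tested, 37.8% in each direction. These shares are near those of the whole table. The median log2 fold change of the 9 genes was -0.41, and that of all genes tested was -0.01.

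**Figure D1:**
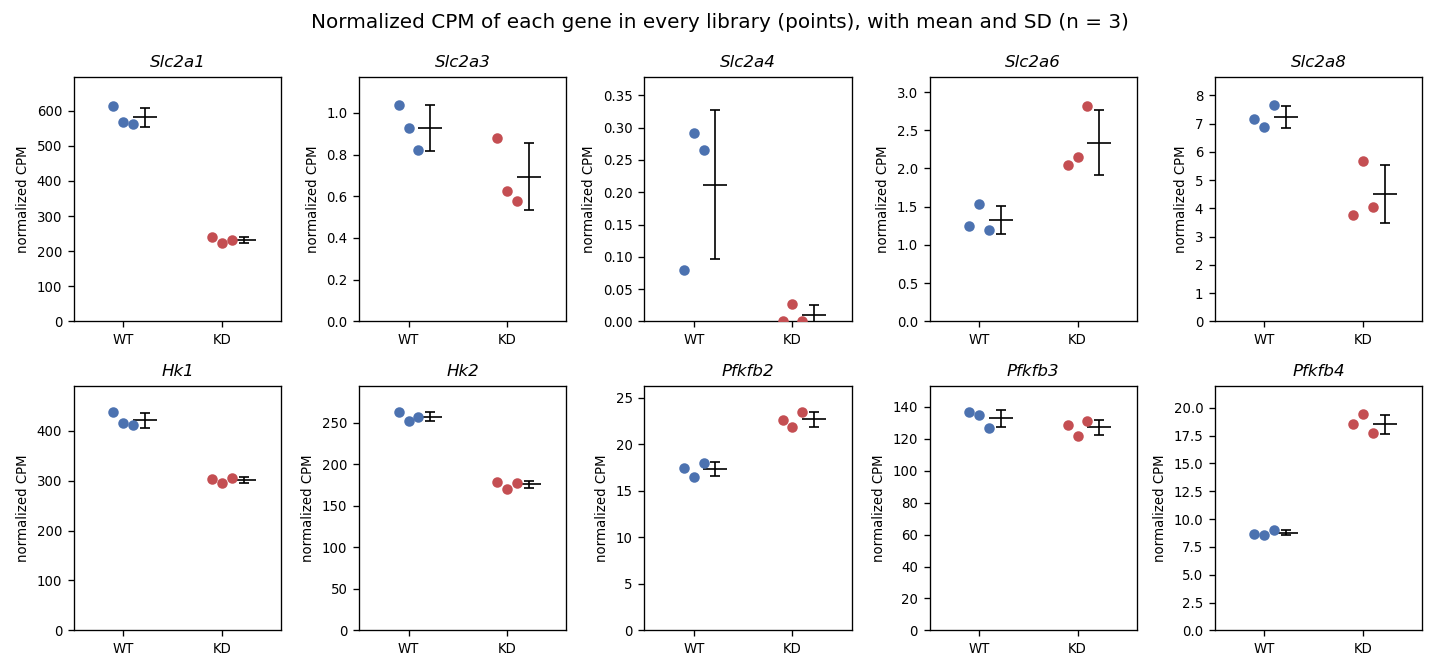
Normalized CPM of each of the 10 genes in the 3 WT (blue) and 3 LINC00115 KD (red) libraries, 1 panel per gene with its own axis from 0; points are libraries and bars the mean ± SD. The KD libraries of Slc2a1, Slc2a8, Hk1 and Hk2 all lie below the WT libraries, those of Slc2a6, Pfkfb2 and Pfkfb4 all lie above them, and those of Slc2a3 and Pfkfb3 overlap with them.

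Among the transporters, Slc2a1, which encodes GLUT1, the basal glucose transporter of most cells, showed the largest fall of the tested members. Its counts were 23078, 21486 and 21212 in the WT libraries and 9323, 8227 and 8820 in the KD libraries. Every KD library was far below every WT library, and the spread within each group was small, with a coefficient of variation of 4.75% in WT and 3.64% in KD. The level fell 2.50-fold, from 581 ± 27.6 to 232 ± 8.47 normalized CPM (log2 fold change -1.32, SE 0.04, 95% interval -1.40 to -1.25, adjusted p = 2.14e-26 by edgeR). Of all genes tested, 6.77% had a lower log2 fold change. Thus the fall of Slc2a1 lay among the lower changes of the table but was not extreme in it.

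Slc2a8 encodes GLUT8, which sits mainly on intracellular membranes. Its counts were 270, 260 and 289 in WT and 146, 208 and 154 in KD. All KD libraries were lower, and KD replicate 2 stood above the other two. The level fell 1.61-fold, from 7.23 ± 0.385 to 4.50 ± 1.02 normalized CPM (log2 fold change -0.69, SE 0.16, adjusted p = 0.000359 by edgeR). The KD libraries varied by 22.7%, where counting alone would give 7.68%.

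Slc2a6 encodes GLUT6, another transporter of internal membranes, and its level was low. Its counts were 47, 58 and 45 in WT and 79, 79 and 107 in KD. Every KD library was higher than every WT library, and KD replicate 3 was the highest. The level rose from 1.32 ± 0.185 to 2.34 ± 0.419 normalized CPM, 1.76-fold (log2 fold change 0.82, SE 0.30, adjusted p = 0.0141 by edgeR). Without KD replicate 3 the log2 fold change was 0.67 and the adjusted p was 0.0786, so that passing the adjusted p rests on that library. Slc2a6 and Slc2a8 thus moved in opposite directions.

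Slc2a3, which encodes the high-affinity transporter GLUT3, typical of neurons, was close to the detection limit. Its counts were 39, 35 and 31 in WT and 34, 23 and 22 in KD. The groups overlapped, with KD replicate 1 among the WT libraries. The log2 fold change was -0.41 with a 95% interval from -1.28 to 0.46 (adjusted p = 0.389 by edgeR), so a fall of the size seen for Slc2a1 lies just outside the interval, and changes within it could not be told from none at this depth.

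Slc2a4 encodes GLUT4, the insulin-responsive transporter of muscle and fat. Its counts were 3, 11 and 10 in WT and 0, 1 and 0 in KD. The KD libraries were all lower, but the counts were too few for the filter. The KD to WT ratio of the summed counts, 1 against 24 and scaled to the library totals, was 0.0411 with an exact 95% binomial interval of 0.000998 to 0.252, which covers counting error only. With no low-count filter the gene was called lower (adjusted p = 0.0133 by edgeR). The skeletal muscle markers summed to 0.451 to 1.03 normalized CPM in WT and 0.465 to 1.69 in KD, with Myh4 at 0 in every KD library, and among them Mylpf had 15, 21 and 21 counts in WT and 1, 10 and 18 in KD. The 5 adipocyte markers found in the table summed to 13.6 to 17.2 in WT and 45.4 to 47.5 in KD, nearly all of it Fabp4, with Lep, Cidec and Cfd at 0 in every WT library. Their part in the values of Slc2a4 was not tested.

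Both hexokinases fell moderately and by similar amounts. Hk1, the isozyme of most tissues, had counts of 16499, 15680 and 15534 in WT and 11709, 10836 and 11618 in KD. Hk2, the isozyme of muscle and fat that many tumors express, had counts of 9903, 9551 and 9697 in WT and 6937, 6287 and 6755 in KD. For both genes every KD library was lower than every WT library, and neither change reached the fold change threshold.

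Hk1 fell by 28.5%, from 421 ± 14.4 to 301 ± 5.51 normalized CPM (log2 fold change -0.48, SE 0.03, adjusted p = 7.64e-15 by edgeR). Hk2 fell by 31.6%, from 257 ± 4.99 to 176 ± 4.31 normalized CPM (log2 fold change -0.55, SE 0.04, adjusted p = 1.38e-15 by edgeR). The interval of the log2 fold change ran from -0.55 to -0.42 for Hk1 and from -0.62 to -0.47 for Hk2, so the intervals overlapped. Hk1os, by its name a gene on the strand opposite Hk1, was picked after its values were seen. It had 93, 64 and 86 counts in WT and 11, 6 and 20 in KD (log2 fold change -2.71, SE 0.42, adjusted p = 7.28e-07 by edgeR). The use of strand in counting is not stated, so reads of Hk1 and Hk1os cannot be told apart where they overlap, but Hk1os had at most 93 counts in a library where Hk1 had 10836 or more.

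**Figure D2:**
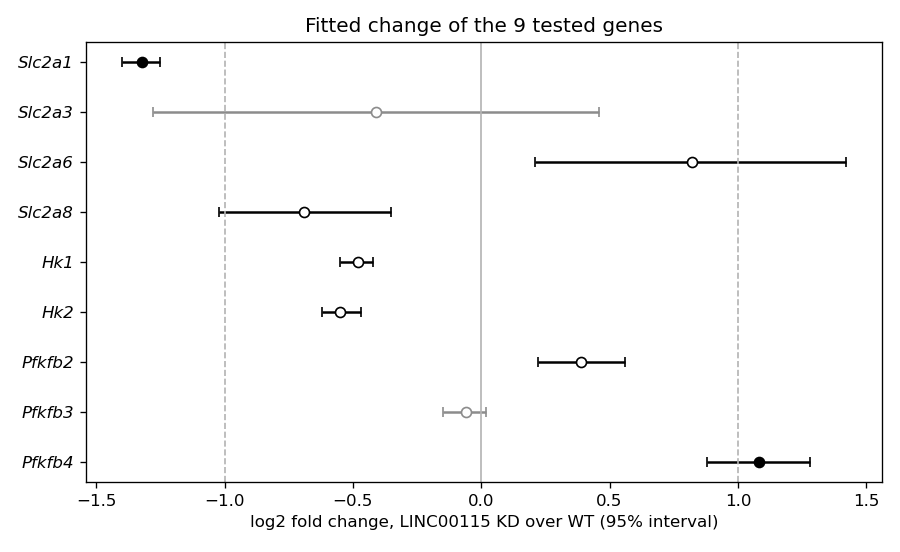
Log2 fold change of LINC00115 KD over WT (x axis) with its 95% interval for the 9 tested genes (rows); filled points were called, grey points did not pass the adjusted p, and dashed lines mark a fold change of 2. Slc2a1 at -1.32 and Pfkfb4 at 1.08 lie past the lines, Hk1 and Hk2 lie close together, and the intervals of Slc2a3 and Pfkfb3 include 0.

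The 3 PFKFB isozymes did not move together. Pfkfb4, an isozyme first known from testis and induced by hypoxia in many tumors, had counts of 327, 325 and 340 in WT and 716, 713 and 672 in KD. The KD libraries were all well above the WT libraries, which differed little among themselves. The level rose 2.12-fold, from 8.76 ± 0.207 to 18.5 ± 0.865 normalized CPM (log2 fold change 1.08, SE 0.10, 95% interval 0.88 to 1.28, adjusted p = 5.9e-12 by edgeR). A lower log2 fold change, falls included, was found in 90.5% of genes tested. The fold change lay close to the threshold of 2, and the interval reaches below it.

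Pfkfb2, the heart isozyme, had counts of 655, 623 and 681 in WT and 875, 803 and 894 in KD. All KD libraries were higher. The level rose 1.31-fold, from 17.3 ± 0.763 to 22.7 ± 0.834 normalized CPM (log2 fold change 0.39, SE 0.08, adjusted p = 6.65e-05 by edgeR).

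Pfkfb3, the isozyme with the strongest kinase activity, had counts of 5164, 5082 and 4799 in WT and 4975, 4473 and 4984 in KD. The groups overlapped, and the level was 133 ± 5.25 normalized CPM in WT and 127 ± 4.84 in KD. The log2 fold change was -0.06 with a 95% interval of -0.15 to 0.02 (adjusted p = 0.179 by edgeR), which leaves out changes beyond those bounds in either direction. With upper quartile scaling it was -0.10 with an adjusted p of 0.0260, so passing the adjusted p depends on the scaling, and the change was far below the fold threshold in both.

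Ratios of 2 isozymes within a library need no scaling between libraries, and 3 such ratios were compared. Pfkfb3 had 15.8, 15.6 and 14.1 counts per count of Pfkfb4 in the WT libraries and 6.95, 6.27 and 7.42 in the KD libraries. This ratio was 2.21-fold lower in KD (log2 ratio 3.92 ± 0.0897 in WT and 2.78 ± 0.122 in KD). The ratio of Slc2a1 to Slc2a3 was 592, 614 and 684 in WT and 274, 358 and 401 in KD, a difference of -0.89 on the log2 scale. Few Slc2a3 counts stand behind it. The ratio of Hk2 to Hk1 was nearly the same in both groups, at 0.600, 0.609 and 0.624 in WT and 0.592, 0.580 and 0.581 in KD, a difference of -0.06 on the log2 scale.

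In all 3 ratios every KD library was lower than every WT library. The two-sided exact permutation test gave p = 0.1 for each, which is the smallest p that 3 libraries against 3 allow, so none could pass a threshold of 0.05, and adjustment over the 3 ratios leaves it at 0.1.

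The genes whose levels over the 6 libraries were most like those of the called members were sought by Pearson correlation of log2(normalized CPM + 0.5), as a description only, since the group difference is shared by all genes that moved. For Slc2a1 these were Pgam1, Pfkm and Bsg. Pgam1 is a glycolytic mutase, Pfkm a phosphofructokinase subunit, and Bsg the chaperone of the lactate transporters. Their r was between 0.9998 and 1.0000, and 912 genes had an r over 0.99. Bsg fell from 936 ± 37.2 to 416 ± 16.9 normalized CPM (log2 fold change -1.17) and Pgam1 fell by 0.78 on the log2 scale, to 464 ± 9.97 normalized CPM. For Pfkfb4 they were Rrn3, a transcription initiation factor of RNA polymerase I, Ifi207, an interferon-inducible gene, and Rhbdf1, an inactive rhomboid protein. Their log2 fold changes were 0.60, 1.49 and 0.35, their r was between 0.9996 and 0.9997, and 953 genes had an r over 0.99. With so many genes at such values, the order among them has little weight.

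Another 64 genes of hexose entry were followed in 4 lists, of which 61 were in the table and 46 passed the filter. Of these 46 genes, 25 were lower and 14 higher by the adjusted p, 7 did not pass, and 3 were called each way, beside 36.7% of all genes tested lower, 36.7% higher, 9.98% called lower and 10.2% called higher. Their median log2 fold change was -0.20, and it was -0.20 as well with genes at or near 0 in WT set to their bound or count ratio. The genes named next, other than Gpi1, Rhoq and Epas1, were picked after their values were seen.

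Among 24 other hexose kinases and first-step enzymes, 18 were tested, 11 fell, 3 rose and 4 did not pass, beside 36.7% of all genes tested in each direction, with a median of -0.39 beside -0.01. Gpi1, which converts the product of hexokinase to fructose phosphate, was called lower. Its counts were 41121, 39452 and 39556 in WT and 18424, 17329 and 18251 in KD, and its level fell from 1060 ± 26.3 to 476 ± 4.25 normalized CPM (log2 fold change -1.16, SE 0.03, adjusted p = 6.84e-27 by edgeR). Every KD library was far below every WT library. The phosphofructokinase subunits Pfkl, Pfkm and Pfkp, on which the PFKFB product acts, all fell, with log2 fold changes of -0.96, -0.86 and -0.86. Pgm1 and G6pdx, which lead from glucose phosphate to glycogen and to the pentose phosphate pathway, fell by 0.90 and 0.83 on the log2 scale.

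The remaining PFKFB gene, Pfkfb1, the liver and muscle isozyme, had counts of 183, 185 and 211 in WT and 119, 72 and 119 in KD. All KD libraries were lower (log2 fold change -0.91, SE 0.20, adjusted p = 0.000167 by edgeR). Tigar, which degrades the same bisphosphate, had counts of 360, 345 and 371 in WT and 694, 659 and 698 in KD and rose (log2 fold change 0.93, SE 0.10, adjusted p = 1.56e-10 by edgeR). Thus, of the 4 PFKFB genes, Pfkfb1 fell, Pfkfb2 and Pfkfb4 rose and Pfkfb3 did not pass. Hk3 and Hkdc1, 2 further hexokinase genes, were nearly silent, with 1 to 6 counts in each library for Hk3 and at most 1 for Hkdc1.

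Among 12 other sugar transporters, 9 were in the table and 3 were tested, of which 2 fell and 1 rose, too few to set beside the shares of the table. Slc2a9, a urate transporter of the GLUT family, fell (log2 fold change -0.30, adjusted p = 0.0101 by edgeR). Slc50a1, a sugar exporter, had a log2 fold change of -0.20. Slc5a2, the sodium-glucose transporter of the kidney tubule, was called higher. It had 0 counts in every WT library and 23, 14 and 16 in the KD libraries, at least 5.86-fold higher against 3 counts per library. Fbp1, the gluconeogenic phosphatase of liver and kidney and the one called higher among the first-step enzymes, was likewise at 0 in WT and had 24, 16 and 20 counts in KD, at least 6.64-fold higher. The kidney markers given above, among them Kap and Umod at 0 in every WT library, differed in the same libraries. Their part in the values of Slc5a2 and Fbp1 was not tested.

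In the list of 19 genes that control the transporters or carry GLUT4 to the cell surface, 18 were tested, 9 fell, 6 rose and 3 did not pass, beside the same 36.7% each way, with a median of -0.12. Rhoq, the GTPase TC10 of GLUT4 traffic, was called lower. Its level fell from 162 ± 4.58 to 73.0 ± 2.27 normalized CPM (log2 fold change -1.15, SE 0.04, adjusted p = 1.15e-22 by edgeR). Txnip and Arrdc4, arrestin-like proteins that draw GLUT1 off the cell surface, fell by 0.33 and 0.45 on the log2 scale. Aspscr1, which tethers GLUT4 inside the cell, rose with a log2 fold change of 0.68.

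Of 9 transcription factors known to act on these genes, 7 were tested, 3 fell and 4 rose, again beside 36.7% each way, with a median of 0.36. The mRNA levels of Hif1a and Myc both rose, and those of Slc2a1, Hk1 and Hk2 fell in the same libraries. A link between these changes was not tested. The study reports that LINC00115 knockdown lowered HIF1α protein, and protein was not measured in these libraries. From its RNA-seq it also reports HIF1 signaling among the pathways lowered by the knockdown. By qRT-PCR it reports lower mRNA of the HIF1α targets LDHA and MDR1. These reports were not examined here. Hif1a went from 254 ± 5.94 to 334 ± 1.68 normalized CPM (log2 fold change 0.40, adjusted p = 1.11e-12 by edgeR) and Myc from 194 ± 6.97 to 368 ± 12.3 (log2 fold change 0.92, adjusted p = 7.03e-22 by edgeR). Arnt, the partner of HIF1A, fell with a log2 fold change of -0.21. Epas1, which encodes HIF2A, was called higher with 0, 0 and 3 counts in WT and 85, 57 and 74 in KD. The ratio of its summed counts was 70.9 with an exact 95% binomial interval of 24.0 to 347 for counting error only. Lung cells are known to express this gene strongly, and the lung markers given above rose in the same libraries. Their part in its value was not tested. Pparg, a nuclear receptor, was called lower from few counts, 31, 21 and 33 in WT and 6, 8 and 0 in KD.

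**Figure D3:**
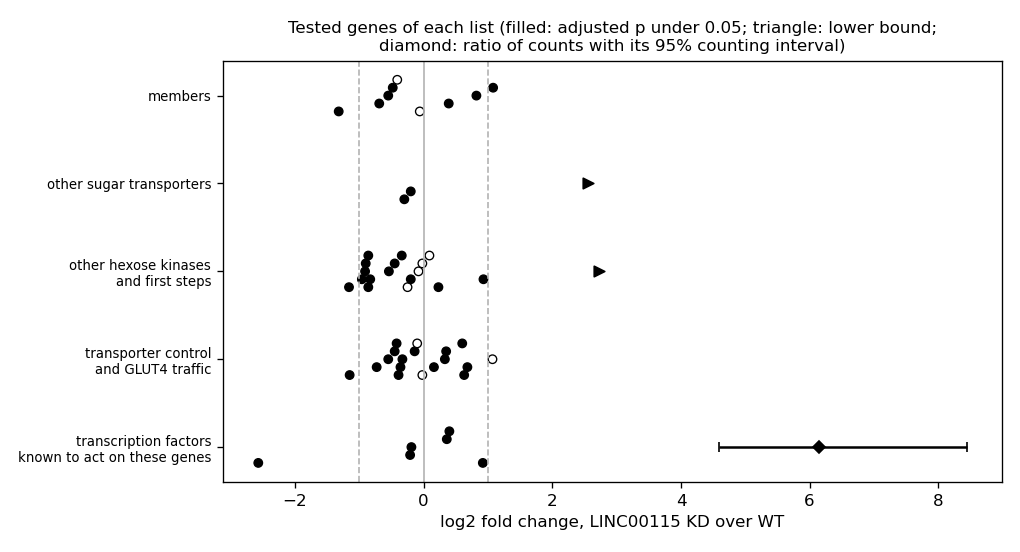
Log2 fold change of LINC00115 KD over WT (x axis) of the tested genes in the 10-gene set and in each of the 4 other lists (rows); circles are genes, filled where the adjusted p was under 0.05, triangles are lower bounds for genes at 0 in WT, the diamond is the count ratio of Epas1 with its 95% counting interval, and dashed lines mark a fold change of 2. Most first-step enzymes lie left of 0, with a median of -0.39, and the members spread from -1.32 to 1.08.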

How the data were processed

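RNA-seq counts of 6 libraries, 3 LINC00115 KD and 3 WT, were used. The authors mapped reads with HISAT2 and deposited 1 table of whole-number counts per gene without normalization. The study's methods name hg19 and the submitters' processing notes hg38, with featureCounts and DESeq2. Neither the annotation nor the strand setting of the counting is given in the sources used here. Each column was assigned by its name, which is the description of its sample. The columns of values not used number 0, and no gene name was blank. Within-group chi-square values per degree of freedom of 3.88 to 7.60 showed no library that copied another.

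The quasi-likelihood test of edgeR 4.0.16 (R 4.3.3) was applied with group as the only term. Low genes were removed by filterByExpr with a minimum count of 10 and a minimum total of 15, TMM gave the scaling, and p-values were adjusted by Benjamini-Hochberg over 13497 genes. As in the study's methods, calls needed an adjusted p under 0.05 and a fold change over 2. Standard errors are the size of the log2 fold change over the square root of F. The scripts were tested on simulated data. Totals of 36979221 to 38799331 counts set the precision, and a count of 0 was taken to allow up to 3 counts, for counting error only. Intervals of count ratios are exact binomial (Clopper-Pearson).

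All 10 members were described. Of the other lists, those called were named by rule where each library of the group with more had at least 50 counts, with the 3 genes most like each called member with the largest change either way, and markers. The members and lists were chosen with earlier results of these data known. Alternatives were other scalings, other low-count filters, DESeq2 1.42.0, leaving out each library, the replicate number as a block, other fold thresholds and, for ratios, 0.5 added to each count. No proteins or gene coordinates are given, since no matching annotation was used here.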

Additional observations from a re-analysis of the deposited data

How the results depend on the processing

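The log2 fold changes of the 9 tested members kept their direction under all alternatives run, and 115 of 117 recomputed values stayed on the same side of the threshold of adjusted p 0.05. The exceptions were Slc2a6 without KD replicate 3 (0.67, adjusted p = 0.0786 by edgeR) and Pfkfb3 with upper quartile scaling (-0.10, adjusted p = 0.0260 by edgeR). The cause was not tested. Members called lower numbered 2 with no low-count filter and 2 with DESeq2, and 1 to 2 when 1 library was left out, with 2 without WT replicate 1 or without KD replicate 2. In each of these the added gene was Slc2a4 (adjusted p from 0.00216 to 0.0141 by edgeR or DESeq2). Without a fold threshold 4 were lower and 3 higher. Of the other hexose genes, 3 were called each way, and 9 lower and 6 higher against a fold change of 1.5 (glmTreat), 25 lower and 14 higher without a fold threshold, 5 higher with no low-count filter and 5 higher with DESeq2. With at least 10 counts in every library edgeR called 0 of these higher past the fold threshold, where 11 of 41 were higher at an unadjusted p under 0.05, since the 3 called genes had under 10 counts in a WT library. Other scalings moved the median log2 fold change of all genes by at most 0.041. Libraries with the same number did not deviate together (correlations of 0.0135, -0.0194 and -0.0202), so the numbers were not taken as pairs. With the replicate block, 1 member was called lower and 1 higher, 3 other hexose genes were called each way, and 1316 genes were called lower and 1360 higher over the table, beside 1347 and 1381 without it. Depth limits Slc2a3, Slc2a4 and Slc2a6, and 3 libraries a group allow no exact permutation p under 0.1.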
